A study of Mus musculus with 16 samples.

Results

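The 34 genes described here encode the enzymes that build cholesterol and long fatty acids and the proteins that switch those enzymes on. They were chosen by name as members of the SREBP pathway, and all 34 were found among the 32166 genes of the count table. By role, 8 belong to the mevalonate pathway, 11 to the sterol branch that turns its product into cholesterol, 6 to the control machinery and 9 to fatty acid synthesis and desaturation.

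RNA was sequenced from microglia/macrophages of C57BL/6 mice aged 10 to 12 weeks, on day 3 after surgery, in 16 libraries. Of these, 4 came from Vdr-cKO mice (Cx3cr1CreER/+; Vdrf/f) after transient middle cerebral artery occlusion (MCAO), 4 from control littermates (Vdrf/f, no Cre) after MCAO, 3 from Vdr-cKO mice after sham surgery and 5 from control mice after sham surgery. The study asks what the vitamin D receptor does in microglia and macrophages after stroke, and here the same libraries are read for lipid synthesis. All groups carry the loxP-flanked Vdr alleles, and the Vdr-cKO groups also carry a tamoxifen-inducible Cre in 1 Cx3cr1 allele. Genotype thus includes the loss of that allele as well as the deletion of Vdr. By the paper's methods, the mice were given tamoxifen before surgery, and mainly male mice were used in vivo. Cre under Cx3cr1 acts in microglia, in border macrophages and in monocytes, which in the blood are replaced with time. Whether each library holds RNA of a single mouse is not stated, so p-values measure the spread between libraries only, part of which may be technical.

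As background, cells make cholesterol from acetyl-CoA through mevalonate, squalene and lanosterol. When membrane sterol is low, SCAP carries the SREBP proteins to the Golgi, where they are cut and freed to enter the nucleus. There SREBP2 (from Srebf2) mainly turns on sterol enzymes and SREBP1 (from Srebf1) mainly fatty acid enzymes. INSIG proteins hold SCAP back when sterol is high. In the brain, cholesterol is made locally because lipoproteins of the blood do not cross the blood-brain barrier, and microglia that take up myelin debris receive a large load of sterol.

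Total counts ran from 13795946 to 17836796 per library, and libraries of a group differed by more than sampling noise in every pair. Vdr had 22 to 119 counts in MCAO Vdr-cKO, 21 to 51 in MCAO control, 3 to 9 in sham Vdr-cKO and 1 to 14 in sham control libraries. These counts are per gene, and which exons they take in is not given, so they do not check the deletion. The paper checked it by staining, in which VDR was almost absent from microglia/macrophages of Vdr-cKO mice after MCAO. Cx3cr1, which lost 1 allele to the Cre, was at 815 to 1046 CPM in MCAO Vdr-cKO and 2211 to 2310.0 CPM in MCAO control, and at 1416 to 3093 CPM in sham Vdr-cKO and 4508 to 5470 CPM in sham control libraries. Markers of microglia were the main marker group in every library (summed level 11798 to 16134 CPM, counts scaled to library size, in MCAO Vdr-cKO, 16144 to 17767 in MCAO control, 23171 to 25156 in sham Vdr-cKO and 25109 to 31884 in sham control). Markers of monocytes summed to 1857 to 4566 CPM in MCAO Vdr-cKO and 3103 to 4422 CPM in MCAO control libraries, against 273 to 308 CPM in sham Vdr-cKO and 242 to 403 CPM in sham control libraries. Sham control replicates 2, 4 and 5 stood apart from the other sham libraries on the first principal component of the sham libraries (38.2% of the variance, scores 17.7 to 37.2 against -20.6 to -3.73). The column names of the 5 sham control libraries also carry a read-file ending that no other group has, so a difference in handling and the sham control group cannot be told apart.

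Promoter sequence is shown for 4 members that stand for the patterns described below. The bases come from the RefSeq promoter table (GRCm38.p6), run 5′ to 3′ on the strand of the gene and end at the base before its start. Hmgcs1 (chr13:119690171-119690350, plus strand) encodes the synthase of HMG-CoA and stands for the sterol genes named whatever their values, Mvd (chr8:122443423-122443602, minus strand) rose after MCAO in both genotypes, Sc5d (chr9:42264301-42264480, minus strand) fell after MCAO in Vdr-cKO mice, and Acly (chr11:100528001-100528180, minus strand) rose after MCAO in both. Capitals mark TCACNCCAC, a form of the sterol regulatory element that SREBPs bind, and CCAAT, the box of the factor NF-Y, on either strand (CCAAT on the other strand reads ATTGG).
Hmgcs1: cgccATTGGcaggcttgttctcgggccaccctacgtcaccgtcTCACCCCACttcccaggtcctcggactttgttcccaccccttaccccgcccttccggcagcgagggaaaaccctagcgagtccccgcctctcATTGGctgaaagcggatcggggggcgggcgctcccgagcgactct
Mvd: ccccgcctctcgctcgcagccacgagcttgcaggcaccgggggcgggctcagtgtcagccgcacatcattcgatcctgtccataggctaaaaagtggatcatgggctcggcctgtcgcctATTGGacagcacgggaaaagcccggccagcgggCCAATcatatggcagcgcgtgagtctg
Sc5d: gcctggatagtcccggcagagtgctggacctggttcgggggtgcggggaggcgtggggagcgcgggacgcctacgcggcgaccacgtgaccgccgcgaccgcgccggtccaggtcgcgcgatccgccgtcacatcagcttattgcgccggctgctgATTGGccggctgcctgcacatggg
Acly: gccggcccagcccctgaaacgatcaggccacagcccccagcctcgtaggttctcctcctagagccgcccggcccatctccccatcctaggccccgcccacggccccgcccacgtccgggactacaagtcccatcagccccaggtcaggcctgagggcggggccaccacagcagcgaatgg
In the stretch of 180 bases shown, Hmgcs1 has the sterol element starting 137 bases before the start and a CCAAT box at 176 and at 45 bases before it, Mvd has boxes at 60 and 27 bases, Sc5d has a box at 24 bases and Acly has neither motif. Windows were in the table for 27 members, with 35 windows in all, and 250 bases before each start were searched. The sterol element was in 1 of the 35 windows (2.86%), that of Hmgcs1, and in 1.05% of the 32851 windows of all genes. CCAAT was in 22 of the 35 (62.9%) and in 33.8% of all windows. A match is a description of these letters and not a shown binding site. Fdps, Fdft1, Sqle, Stard4, Scd1, Scd2 and Fads1 had no window in the table.

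Levels of the members, divided by exon length so that genes can be compared, spanned a wide range. Scd2, a stearoyl-CoA desaturase that is the main form of the brain, had group means of 37.6 CPM per kb of exon in MCAO Vdr-cKO, 53.7 in MCAO control, 51.9 in sham Vdr-cKO and 37.7 in sham control libraries. Acly, which makes cytosolic acetyl-CoA from citrate, had 44.7 in MCAO Vdr-cKO, where it was above Scd2, 44.0 in MCAO control, 37.3 in sham Vdr-cKO and 36.1 in sham control libraries. The fatty acid desaturase Fads1 had 21.7 to 37.5 CPM per kb over the group means, and these 3 members were the highest in every group. Among the control genes Srebf1 (13 to 18.2 CPM per kb) lay above Srebf2 (9.07 to 11 CPM per kb). Fdps, farnesyl diphosphate synthase, was lowest at 0.149 to 0.241 CPM per kb, with 6 to 19 counts per library, and it shares 1124 exonic bases with a gene on the same strand, so its reads are uncertain.

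**Figure D1:**
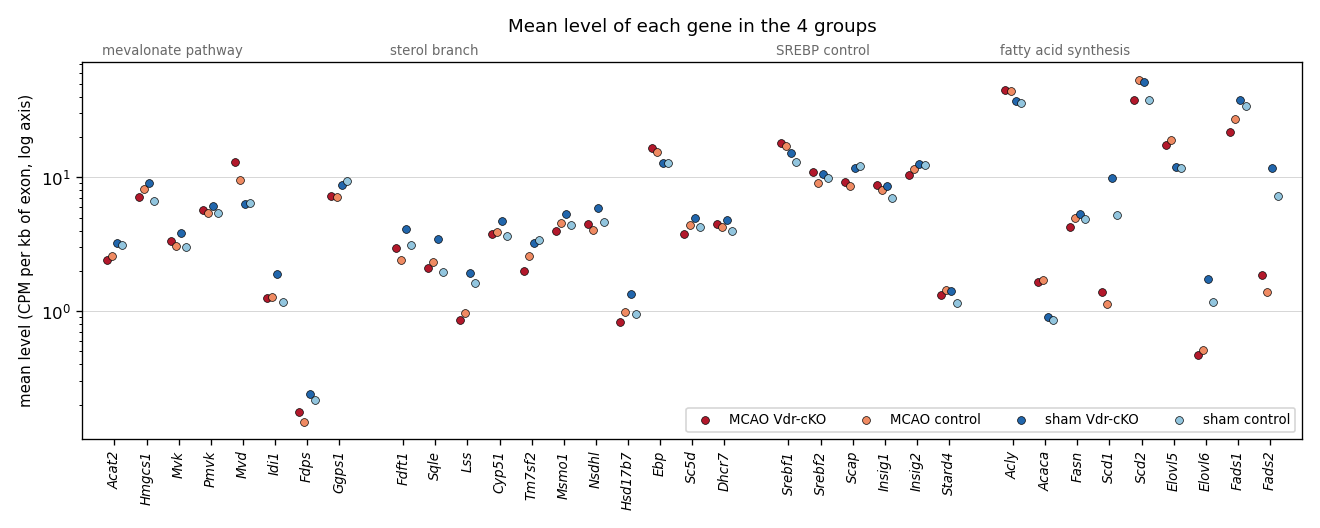
Mean level of each of the 34 genes (CPM per kb of exon, log axis) in MCAO Vdr-cKO, MCAO control, sham Vdr-cKO and sham control libraries, by role. Scd2, Acly and Fads1 are highest and Fdps is lowest, and Scd1, Fads2 and Elovl6 lie far lower in both MCAO groups than in both sham groups.

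MCAO was set against sham surgery within each genotype to ask how the pathway stands in microglia/macrophages of the injured brain. Members moved in both directions, and the fatty acid genes moved most. In Vdr-cKO mice, 5 of the 34 members rose (14.7%) and 18 fell (52.9%), where of all 16357 genes tested 29.3% rose and 28.8% fell (adjusted p under 0.05, edgeR quasi-likelihood test). In control mice, 6 members rose (17.6%) and 9 fell (26.5%), where of all 16089 genes tested 31.2% rose and 32.3% fell. With a log2 fold change beyond 1 as well, 1 member rose and 4 fell in Vdr-cKO mice (14.4% and 14.9% of all genes), and 0 rose and 3 fell in control mice (12.8% and 14.8% of all genes). The median log2 fold change of the members was -0.35 in Vdr-cKO mice, against -0.02 for all genes, and 0.01 in control mice, against -0.05 for all genes. The groups of each comparison hold different libraries, and 4 members rose in both genotypes, 8 fell in both and 9 passed in neither. In bulk RNA, fewer cells of a type and less RNA per cell cannot be told apart, and MCAO libraries also carry more monocyte marker RNA (above). Of 8 microglia markers 7 fell in each genotype, and of 17 cell cycle genes 17 rose in each. The part of these shifts in the members' changes was not tested.

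Scaling matters for the smaller of these changes. With upper quartile factors the median of all genes shifted to -0.20 in Vdr-cKO mice and to -0.24 in control mice, and the split of all calls became 3766 higher and 6182 lower in Vdr-cKO mice (4796 and 4713 with TMM) and 3850.0 higher and 6757 lower in control mice (5024 and 5191 with TMM). Of the members, 3 then rose and 22 fell in Vdr-cKO mice, and 4 rose and 14 fell in control mice. Acly (log2 fold change 0.08 in both genotypes with upper quartile factors), Ebp and Srebf1 did not pass as higher under that scaling, while Mvd, Acaca and Elovl5 did in both genotypes.

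**Figure D2:**
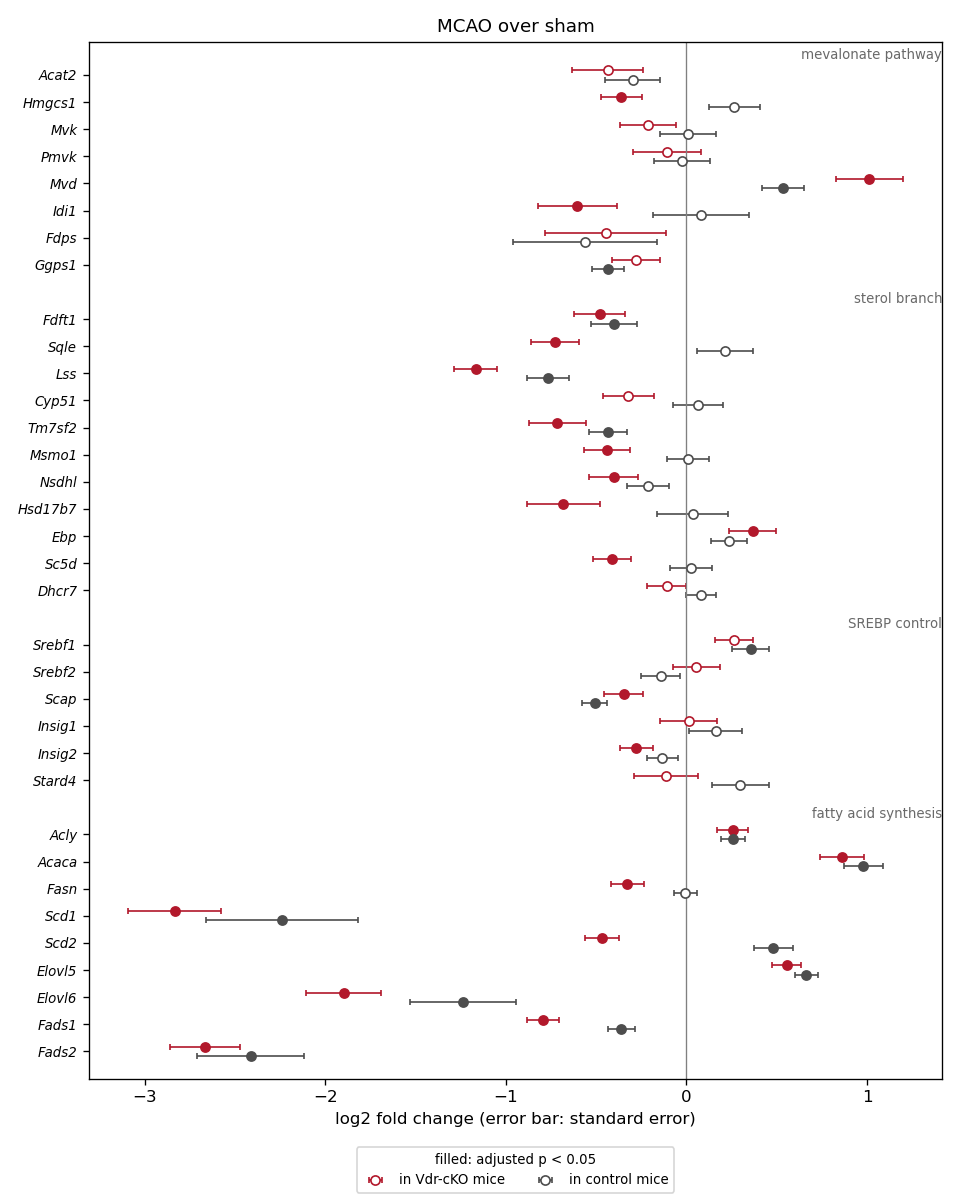
Log2 fold change of MCAO over sham (x axis, bars are the standard error) for the 34 genes by role, in Vdr-cKO mice (red) and in control mice (grey), with filled points for an adjusted p under 0.05. Scd1, Fads2 and Elovl6 lie furthest to the left in both genotypes, Mvd, Acaca and Elovl5 lie to the right in both, and Scd2 lies at -0.47 in Vdr-cKO and at 0.48 in control mice.

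The largest falls among the members after MCAO were in a desaturase pair and an elongase. Scd1, a stearoyl-CoA desaturase that makes monounsaturated fatty acids (chromosome 19 of GRCm38, 44394455 to 44407879), stood at 4.7, 8.0, 10.3 and 4.0 CPM in MCAO Vdr-cKO, at 3.4, 8.0, 4.78 and 5.88 CPM in MCAO control, at 45.5, 53.8 and 45.5 CPM in sham Vdr-cKO and at 43.0, 18.3, 40.1, 12.0 and 13.7 CPM in sham control libraries. Every MCAO library lay below every sham library of its genotype, and the sham control libraries were split, with replicates 1 and 3 far above replicates 2, 4 and 5. The log2 fold change was -2.83 ± 0.26 (SE, edgeR adjusted p = 7.44e-06) in Vdr-cKO and -2.24 ± 0.42 (SE, edgeR adjusted p = 0.000549) in control mice.

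Fads2, the desaturase that starts the conversion of linoleic and linolenic acid to long polyunsaturated fatty acids (chromosome 19, 10062765 to 10101746), stood at 4.36, 7.81, 7.22 and 4.93 CPM in MCAO Vdr-cKO, 3.60, 6.75, 4.08 and 3.99 CPM in MCAO control, 44.5, 34.2 and 37.6 CPM in sham Vdr-cKO and 40.0, 20.2, 24.6, 14.5 and 20.6 CPM in sham control libraries. Its groups did not overlap in either genotype, and the log2 fold change was -2.67 ± 0.19 (SE, edgeR adjusted p = 1.73e-06) in Vdr-cKO and -2.41 ± 0.30 (SE, edgeR adjusted p = 1.9e-05) in control mice. Elovl6, the elongase that acts on palmitate (chromosome 3, 129532355 to 129638495), was at 2.84, 3.81, 2.39 and 3 CPM in MCAO Vdr-cKO, 2.46, 3.44, 3.79 and 3.45 CPM in MCAO control, 11.5, 12.8 and 9.25 CPM in sham Vdr-cKO and 10.8, 6.25, 10.5, 4.08 and 6.24 CPM in sham control libraries, with no overlap between surgeries in either genotype. It fell by 1.90 on the log2 scale in Vdr-cKO (standard error 0.21) and by 1.24 in control mice (standard error 0.29). None of these 3 genes passed the test of a difference between genotypes in its change (interaction adjusted p of 0.680, 0.822 and 0.450 for Scd1, Fads2 and Elovl6, edgeR).

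Oligodendrocytes make much fatty acid and cholesterol for myelin, so their markers are given beside these falls. Of 10 oligodendrocyte markers 7 passed the filter on low counts. Mag and Mal fell after MCAO in both genotypes, Mbp and Cnp rose in both, and Mobp passed as higher in Vdr-cKO mice (log2 fold change 1.08) and had 0.11 in control mice. The list summed to 168 to 212 CPM in MCAO Vdr-cKO, 142 to 159 in MCAO control, 121 to 155 in sham Vdr-cKO and 139 to 158 in sham control libraries, and Mog, a defining marker, was at 0 to 1.17 CPM in all libraries. Of 8 astrocyte markers, Clu and Sox9 fell after MCAO in both genotypes and Gfap, Gja1 and Aldoc rose in both, while Slc1a3 fell in Vdr-cKO and rose in control mice. Slc1a2 and Aqp4 fell in control mice (log2 fold changes of -2.34 and -0.81) and had -0.75 and 0.09 in Vdr-cKO mice, so that 3 of the 8 fell and 3 rose in Vdr-cKO mice, and 4 fell and 4 rose in control mice. Clu, picked after its values were seen, stood at 327, 174, 234, 111 and 175 CPM in the 5 sham control libraries. Replicates 1 and 3 were highest, as they were for Scd1, Fads2 and Elovl6. No other astrocyte marker of the list had both of these replicates highest. In the same libraries Slc1a2 was at 5.58, 11.6, 7.97, 8.77 and 8.88 CPM, and Slc1a3 at 147, 146, 165, 163 and 122 CPM. Of 7 endothelial markers 3 fell in each genotype, while 2 rose in Vdr-cKO and 1 in control mice. Slco1c1, picked after its values were seen, was at 97.0, 47.5, 81.7, 28.1 and 49.2 CPM in sham control libraries. It was at 86.6 to 102 CPM in sham Vdr-cKO, 6.85 to 18.6 in MCAO Vdr-cKO and 5.80 to 15.6 in MCAO control libraries. Neutrophil markers fell too, 8 of 8 in Vdr-cKO mice and 5 of 7 tested in control mice. The part of these cells in the falls was not tested. Without sham control replicates 2, 4 and 5, 10 members fell and 4 rose in control mice. Of all 16676 genes tested in that setting, 4216 fell and 4218 rose.

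**Figure D3:**
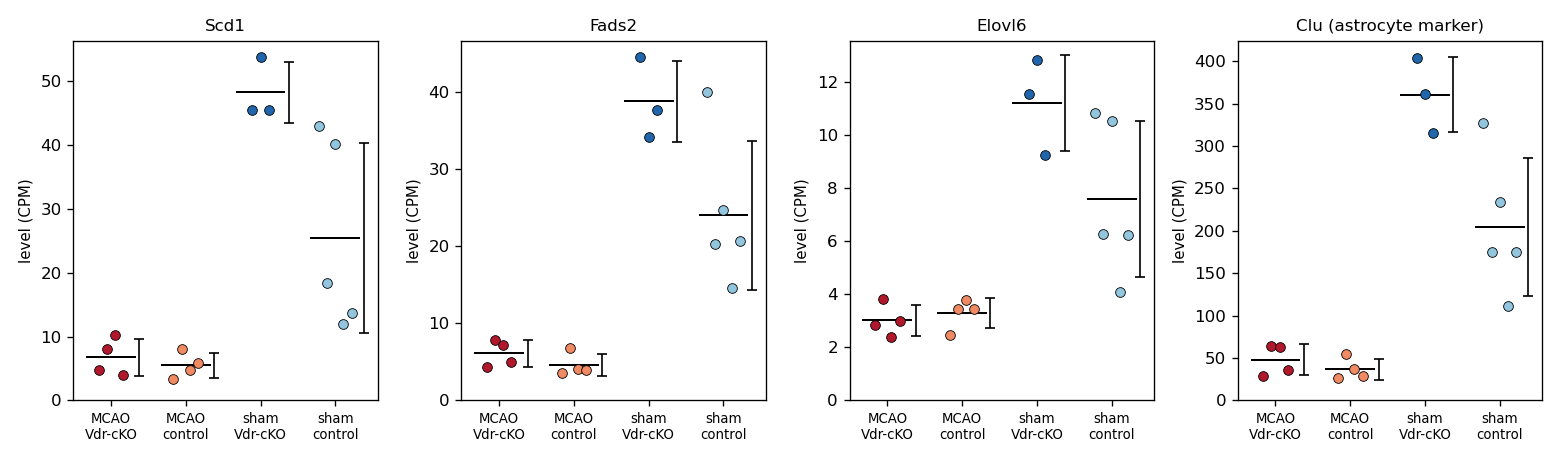
Levels (CPM) of Scd1, Fads2 and Elovl6, and of the astrocyte marker Clu, in each library of MCAO Vdr-cKO, MCAO control, sham Vdr-cKO and sham control mice, with the mean (line) and SD (bar) of each group. Clu was chosen after its values were seen, and no other astrocyte marker of the list had both sham control replicates 1 and 3 highest. All 3 lipid genes and Clu are low in every MCAO library, and the sham control libraries are spread.

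Sterol enzymes also fell, by less. Lss, which closes squalene epoxide into lanosterol (chromosome 10, 76531588 to 76557138, with 381 exonic bases shared with 4930483K19Rik on the opposite strand), stood at 9.20, 9.21, 10.0 and 8.79 CPM in MCAO Vdr-cKO, 12.2, 9.26, 9.84 and 10.3 CPM in MCAO control, 20.7, 21.5 and 20.3 CPM in sham Vdr-cKO and 17.6, 18.8, 16.7, 16.3 and 17.6 CPM in sham control libraries. MCAO and sham libraries did not overlap in either genotype, and the log2 fold change was -1.17 ± 0.12 (SE, edgeR adjusted p = 1.34e-05) in Vdr-cKO and -0.77 ± 0.12 (SE, edgeR adjusted p = 0.000102) in control mice. Of the 11 members of the sterol branch, 8 fell and 1 rose in Vdr-cKO mice, and 3 fell and 0 rose in control mice. Those that fell in both were Lss, Tm7sf2, a sterol reductase (log2 fold change -0.72 in Vdr-cKO and -0.43 in control mice), and Fdft1, squalene synthase (-0.48 and -0.40). Fdft1 shares 774 exonic bases with Ctsb on the opposite strand and the strand setting of the counts is not given, so its reads are uncertain, and without MCAO control replicate 4 its adjusted p in control mice was 0.0526. Tm7sf2 was at 7.82, 8.07, 9.37 and 9.73 CPM in MCAO Vdr-cKO, 10.6, 12, 11 and 11.8 CPM in MCAO control, 12.4, 13.7 and 16.9 CPM in sham Vdr-cKO and 15.7, 13.8, 14.4, 16.3 and 15.1 CPM in sham control libraries, and Fdft1 at 10.9, 14.5, 11.2 and 13.3 CPM in MCAO Vdr-cKO, 11, 10.4, 10.05 and 8.99 CPM in MCAO control, 19, 16.6 and 16.4 CPM in sham Vdr-cKO and 13.8, 12.2, 15.1, 12.3 and 12.1 CPM in sham control libraries. For both, MCAO libraries lay below sham libraries in each genotype. Ebp, a sterol isomerase, rose in Vdr-cKO mice (0.37) and did not pass in control mice (0.24, adjusted p = 0.0567, edgeR).

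Sqle, squalene epoxidase, Msmo1, Nsdhl, Hsd17b7 and Sc5d, which trim and reshape the sterol ring, and Hmgcs1, Idi1, Fasn and Insig2 passed as lower in Vdr-cKO mice and did not pass in control mice. Sc5d was at 18.3, 19.8, 18.6 and 16.5 CPM in MCAO Vdr-cKO, 26.4, 21.1, 18 and 20.7 CPM in MCAO control, 24.7, 23.8 and 24.4 CPM in sham Vdr-cKO and 19.98, 19, 22.7, 21.2 and 20.9 CPM in sham control libraries, with every MCAO library below every sham library in Vdr-cKO mice and overlap in control mice. Idi1, the isomerase of isopentenyl diphosphate, was at 5.46, 4.45, 3.58 and 3.93 CPM in MCAO Vdr-cKO, 5.2, 4.37, 3.3 and 4.87 CPM in MCAO control, 7.22, 7.35 and 5.22 CPM in sham Vdr-cKO and 5.41, 4.11, 5.12, 2.13 and 3.72 CPM in sham control libraries, with overlap in both genotypes. The difference between genotypes in these changes passed the test for Sqle alone (below), and for the other 8 the adjusted p of the interaction was 0.117 to 0.643 by edgeR. Idi1, Insig2, Hmgcs1 and Scap sat close to the threshold in Vdr-cKO mice. Of the 7 fits without 1 library, the call was lost in 5 for Idi1, 4 for Insig2, 3 for Hmgcs1 and 1 for Scap. Examples by edgeR are an adjusted p of 0.121 for Idi1, 0.111 for Insig2 and 0.101 for Hmgcs1 without sham Vdr-cKO replicate 1, and 0.103 for Scap without sham Vdr-cKO replicate 3.

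In the mevalonate pathway, Mvd was the member that rose. It encodes the decarboxylase that yields isopentenyl diphosphate (chromosome 8, 122433601 to 122443422) and stood at 31.8, 21.4, 23.4 and 19.3 CPM in MCAO Vdr-cKO, 18.9, 18.7, 16.3 and 16.6 CPM in MCAO control, 10.2, 11.2 and 14.0 CPM in sham Vdr-cKO and 12.3, 12.7, 9.46, 12.7 and 12.5 CPM in sham control libraries. All MCAO libraries were above all sham libraries, with a log2 fold change of 1.01 ± 0.19 (SE, edgeR adjusted p = 0.000892) in Vdr-cKO and 0.54 ± 0.12 (SE, edgeR adjusted p = 0.00163) in control mice. Its neighbours in the pathway did otherwise. Ggps1 was at 29.4, 39.8, 32.9 and 34.2 CPM in MCAO Vdr-cKO, 33.5, 32.1, 34.1 and 34.1 CPM in MCAO control, 46.8, 43.1 and 33.8 CPM in sham Vdr-cKO and 38.1, 41.6, 51.1, 48.8 and 42.5 CPM in sham control libraries, without overlap between surgeries in control mice and with overlap in Vdr-cKO mice. Ggps1, which makes geranylgeranyl diphosphate for protein prenylation, fell in control mice (-0.43, with -0.28 and adjusted p = 0.0986 in Vdr-cKO mice, edgeR), and Acat2, Mvk, Pmvk and Fdps did not pass in either genotype, with log2 fold changes of -0.56 to 0.01.

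Of the genes of the fatty acid pathway, 3 rose in both genotypes. Acaca, acetyl-CoA carboxylase, which makes malonyl-CoA (chromosome 11, 84129672 to 84401651), stood at 29.9, 24.9, 30.1 and 27.6 CPM in MCAO Vdr-cKO, 24.8, 31.0, 30.0 and 31.4 CPM in MCAO control, 14.2, 17.4 and 14.6 CPM in sham Vdr-cKO and 16.3, 14.2, 12.6, 15.2 and 14.5 CPM in sham control libraries. Its groups did not overlap, with a log2 fold change of 0.86 ± 0.12 (SE, edgeR adjusted p = 0.00016) in Vdr-cKO and 0.98 ± 0.11 (SE, edgeR adjusted p = 6.04e-06) in control mice. A processed pseudogene, Gm5182, is 99.2% identical to Acaca over 6118 bases, so part of its reads could be assigned to either. Elovl5, the elongase of polyunsaturated fatty acids, was at 59.8, 62.6, 59.9 and 64.9 CPM in MCAO Vdr-cKO, 65.7, 66.2, 68.1 and 68.1 CPM in MCAO control, 42.4, 41.6 and 41.8 CPM in sham Vdr-cKO and 41.9, 40.3, 43.5, 43.1 and 38.7 CPM in sham control libraries. MCAO libraries lay above sham libraries throughout, with log2 fold changes of 0.55 in Vdr-cKO and 0.66 in control mice. Acly rose by 0.26 in both. Fasn, fatty acid synthase, was at 47, 44.3, 51.6 and 41.8 CPM in MCAO Vdr-cKO, 54.1, 56.5, 50.7 and 57.1 CPM in MCAO control, 56.7, 57.6 and 59.1 CPM in sham Vdr-cKO and 54.8, 53.2, 49.1, 56.3 and 55.3 CPM in sham control libraries. Its MCAO libraries lay below its sham libraries in Vdr-cKO mice and overlapped them in control mice, and its log2 fold change was -0.33 (adjusted p = 0.0104, edgeR) in Vdr-cKO and -0.01 (adjusted p = 0.948, edgeR) in control mice. Thus the carboxylase and the polyunsaturated elongase were higher after MCAO in the same libraries in which Scd1, Fads2 and Elovl6 were lower.

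The control genes moved little. Scap, the sterol sensor and escort of SREBP, stood at 69.0, 57.0, 72.7 and 75.2 CPM in MCAO Vdr-cKO, 62.8, 66.5, 65.6 and 63.0 CPM in MCAO control, 83.7, 81.6 and 95.3 CPM in sham Vdr-cKO and 97.0, 90.1, 80.8, 95.1 and 86.6 CPM in sham control libraries. It fell by 0.35 on the log2 scale in Vdr-cKO (standard error 0.11) and by 0.51 in control mice (standard error 0.07), and no MCAO library reached the lowest sham library of its genotype. Srebf1 was at 114, 92.4, 104 and 99.3 CPM in MCAO Vdr-cKO, 108, 96.9, 86.4 and 91.7 CPM in MCAO control, 89.7, 74.2 and 91.2 CPM in sham Vdr-cKO and 79.1, 83.2, 57.6, 73.3 and 73.9 CPM in sham control libraries. MCAO libraries were above sham libraries in each genotype, with log2 fold changes of 0.26 (adjusted p = 0.0501, edgeR) in Vdr-cKO and 0.35 (adjusted p = 0.00903, edgeR) in control mice. Srebf2 was at 98.6, 79.1, 72.4 and 65.6 CPM in MCAO Vdr-cKO, 78.7, 62.6, 60.4 and 58.8 CPM in MCAO control, 71.8, 74 and 81.4 CPM in sham Vdr-cKO and 81.3, 73.8, 58.6, 72.5 and 66.9 CPM in sham control libraries, and its groups overlapped. It had log2 fold changes of 0.05 (adjusted p = 0.744, edgeR) in Vdr-cKO and -0.14 (adjusted p = 0.268, edgeR) in control mice. Insig1 was at 34.9, 27.3, 24.2 and 21.8 CPM in MCAO Vdr-cKO, 29.98, 20.7, 23.5 and 25 CPM in MCAO control, 24.9, 29.6 and 25.5 CPM in sham Vdr-cKO and 27.2, 18.6, 24.1, 19.2 and 19.5 CPM in sham control libraries, all overlapping. Insig1, itself a target of SREBP, had 0.01 and 0.16, and Stard4, a carrier of sterol between membranes, had -0.11 and 0.30, with no call in either genotype. Insig2, the other retention protein of SCAP, was at 33.3, 36.1, 39.6 and 35.2 CPM in MCAO Vdr-cKO, 41.8, 41.8, 37.8 and 38.4 CPM in MCAO control, 45.7, 41.5 and 43.6 CPM in sham Vdr-cKO and 46.1, 42.1, 47.3, 42.6 and 36.8 CPM in sham control libraries. It fell in Vdr-cKO mice (-0.28), where surgeries did not overlap, and had -0.13 in control mice.

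Other genes of these pathways that are not members showed the same mixture. Of 16 further sterol genes 15 were tested, and 4 rose and 6 fell in Vdr-cKO mice, while 5 rose and 3 fell in control mice. Por, the reductase that feeds electrons to Cyp51 and Sqle, rose by 1.78 in Vdr-cKO and 1.49 in control mice, and Cyb5r3, a reductase that serves desaturases through cytochrome b5, rose by 1.22 in both. Of 17 further fatty acid genes 13 were tested, and 4 rose and 8 fell in Vdr-cKO mice, while 4 rose and 9 fell in control mice. Acacb, the mitochondrial acetyl-CoA carboxylase, had a log2 fold change of -2.53 in both genotypes, and Elovl7, an elongase, of -2.95 in Vdr-cKO and -2.73 in control mice. Me1, which makes NADPH, had -1.83 and -1.51, while the elongation cycle enzymes Hacd2 (0.78 and 0.60) and Hsd17b12 (0.67 and 0.98) rose in both.

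After MCAO, Vdr-cKO microglia/macrophages were compared with control ones to ask what the genotype changes in the injured brain. Scd2 was the member that differed. It stood at 214, 183, 228 and 198 CPM in MCAO Vdr-cKO and at 299, 330.4, 265 and 279.6 CPM in MCAO control libraries, so that every Vdr-cKO library was below every control library. The log2 fold change was -0.50 ± 0.09 (SE, edgeR adjusted p = 0.00939), which is 0.707 times the control level, and the adjusted p was 0.0110 to 0.0362 with any 1 library left out. In this comparison 0 members rose and 1 fell (2.94%), where of all 15286 genes tested 3.24% rose and 1.64% fell, so the count is near the background. At an unadjusted p under 0.05, 2 members were higher and 5 lower, where of all 15286 genes 1538 were higher and 1459 lower. With DESeq2 0 members rose and 2 fell, where of 13507 genes tested 725 rose and 517 fell. Groups did not overlap for 1 member in the higher direction, Mvd (6.05% of all genes), and for 5 in the lower direction, Scd2, Fads1, Tm7sf2, Hmgcs1 and Elovl5 (7.51% of all genes). Fads1 had a log2 fold change of -0.31 (adjusted p = 0.0525, edgeR) and Mvd of 0.45 (adjusted p = 0.115, edgeR).

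Srebf1 (0.11), Srebf2 (0.29), Scap (0.10), Insig1 (0.14) and Insig2 (-0.13) did not pass between genotypes after MCAO, nor did Hmgcs1 (-0.18), Sqle (-0.15) and Fasn (-0.23), values on the log2 scale with adjusted p of 0.149 to 0.692 by edgeR. The 95% interval of the log2 fold change ran from -0.07 to 0.29 for Srebf1, from 0.03 to 0.55 for Srebf2 and from -0.39 to -0.07 for Fasn. The median over the 34 members was -0.02, against 0.01 for all genes. Beside these values, 1 of 8 microglia markers passed between the genotypes, the lower Cx3cr1, and without it the other 7 summed to 10980.0 to 15088 CPM in MCAO Vdr-cKO and 13834 to 15491 CPM in MCAO control libraries, which overlap. Markers of border macrophages summed to 511 to 569 CPM in MCAO Vdr-cKO and 711 to 872 CPM in MCAO control libraries, with 1 of 6 lower by the test. Of 7 endothelial markers 1 passed, Ly6a, at 155 to 169.6 CPM in MCAO Vdr-cKO and 22.5 to 31 CPM in MCAO control libraries, and the other 6 overlapped in their sum (65 to 100.5 CPM in MCAO Vdr-cKO and 63.4 to 84.5 CPM in MCAO control libraries). Of 10 monocyte markers 2 passed as higher and 1 as lower, and 8 had a log2 fold change above 0. Ly6c2 was at 147 to 450 CPM in MCAO Vdr-cKO and 18.4 to 35.4 CPM in MCAO control libraries. In the same order, Plac8 was at 106 to 364 and 28.9 to 44.0 CPM, and F13a1 at 341 to 453 and 588 to 744 CPM. Of 8 astrocyte markers 1 passed, the lower Slc1a3, and 5 had a log2 fold change above 0. Slc1a3 was at 76.3 to 104 CPM in MCAO Vdr-cKO and 118 to 496 CPM in MCAO control libraries. Of 7 oligodendrocyte markers tested 1 passed, the higher Cnp, and 4 had a log2 fold change below 0. In the same order, Cnp was at 78.5 to 123 and 52.2 to 54.2 CPM. Of 17 cell cycle genes 0 passed, and 5 were lower at an unadjusted p under 0.05. Cx3cr1, Ly6a, Ly6c2, Plac8, F13a1, Slc1a3 and Cnp were singled out after their values were seen. Their part in the fall of Scd2 was not tested. Without MCAO Vdr-cKO replicates 1 and 2, Scd2 had a log2 fold change of -0.45 (adjusted p = 0.0347, edgeR).

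After sham surgery, the same genotypes were compared in the uninjured brain. No member passed by edgeR, with 0 higher and 0 lower, where of all 16425 genes tested 0.444% rose and 0.0244% fell. The members nevertheless leaned to one side. Their log2 fold change was above 0 for 27 of 34, with a median of 0.22 against -0.02 for all genes. At an unadjusted p under 0.05, 13 members were higher (38.2%) and 0 lower, where of all genes 5.96% were higher and 5.22% lower. In the higher direction, groups did not overlap for 10 members (29.4%), where 5.22% of all genes did so, and in the lower direction for 0, where 2.5% of all genes did so. Of the 13, Hmgcs1, Mvk and Idi1 belong to the mevalonate pathway, Fdft1, Sqle, Lss, Cyp51, Nsdhl, Hsd17b7 and Dhcr7 to the sterol branch and Scd1, Scd2 and Fads2 to the fatty acid group. Genes regulated together are not independent, and these counts carry no test.

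Sqle, which makes squalene epoxide and is a control step of sterol synthesis (chromosome 15, 59315077 to 59331192), stood at 19.4, 19.2 and 18.7 CPM in sham Vdr-cKO and at 13.8, 9.05, 12.4, 10.1 and 9.33 CPM in sham control libraries. All 3 Vdr-cKO libraries were above all 5 control libraries, with a log2 fold change of 0.77 ± 0.15 (SE, edgeR adjusted p = 0.0635). Of 9 other settings it passed in 4, with DESeq2, limma-voom, no filter and all libraries in 1 fit, and did not pass in 5, with an adjusted p of 0.00106 to 0.777 over the 9. Over the 8 fits without 1 library its adjusted p was 0.0193 to 0.334, and 6 of them did not pass. Hmgcs1, which makes HMG-CoA (chromosome 13, 119690379 to 119708260), stood at 45.2, 46.1 and 34.5 CPM in sham Vdr-cKO and at 38.0, 28.7, 36.6, 23.1 and 26.3 CPM in sham control libraries, which overlap, with a log2 fold change of 0.43 (adjusted p = 0.402, edgeR). Scd2 stood at 299, 282 and 269.5 CPM in sham Vdr-cKO and at 255, 196, 209, 177 and 194 CPM in sham control libraries, which do not overlap, with a log2 fold change of 0.43 (adjusted p = 0.17, edgeR).

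The sham control libraries that stood apart (replicates 2, 4 and 5) were the lowest of their group for Sqle, Hmgcs1, Scd1, Fads2 and Elovl6. When replicates 2, 4 and 5 were left out, 2 members were higher at an unadjusted p under 0.05 instead of 13, but that count also moved with other libraries. Leaving out a single Vdr-cKO library gave 4 (replicate 1), 6 (replicate 2) or 9 (replicate 3) such members, leaving out a single control library gave 7 (replicate 5) to 14 (replicates 1 and 3), and a replicate block gave 3. Without sham control replicates 2, 4 and 5, Sqle had a log2 fold change of 0.51 (adjusted p = 0.410, edgeR). Without sham control replicate 1 alone, 3 members rose, where of all 16203 genes tested 161 rose. Cell cycle genes rose in the same comparison (12 of 17, summed level 194 to 284 CPM in sham Vdr-cKO and 112 to 129 CPM in sham control libraries), and of 8 astrocyte markers 1 passed, the higher Slc1a3, at 472 to 689 CPM in sham Vdr-cKO and 122 to 165 CPM in sham control libraries, while 5 of the 8 had a log2 fold change below 0 (median of the 8, -0.37). Their part in the lean of the members was not tested.

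**Figure D4:**
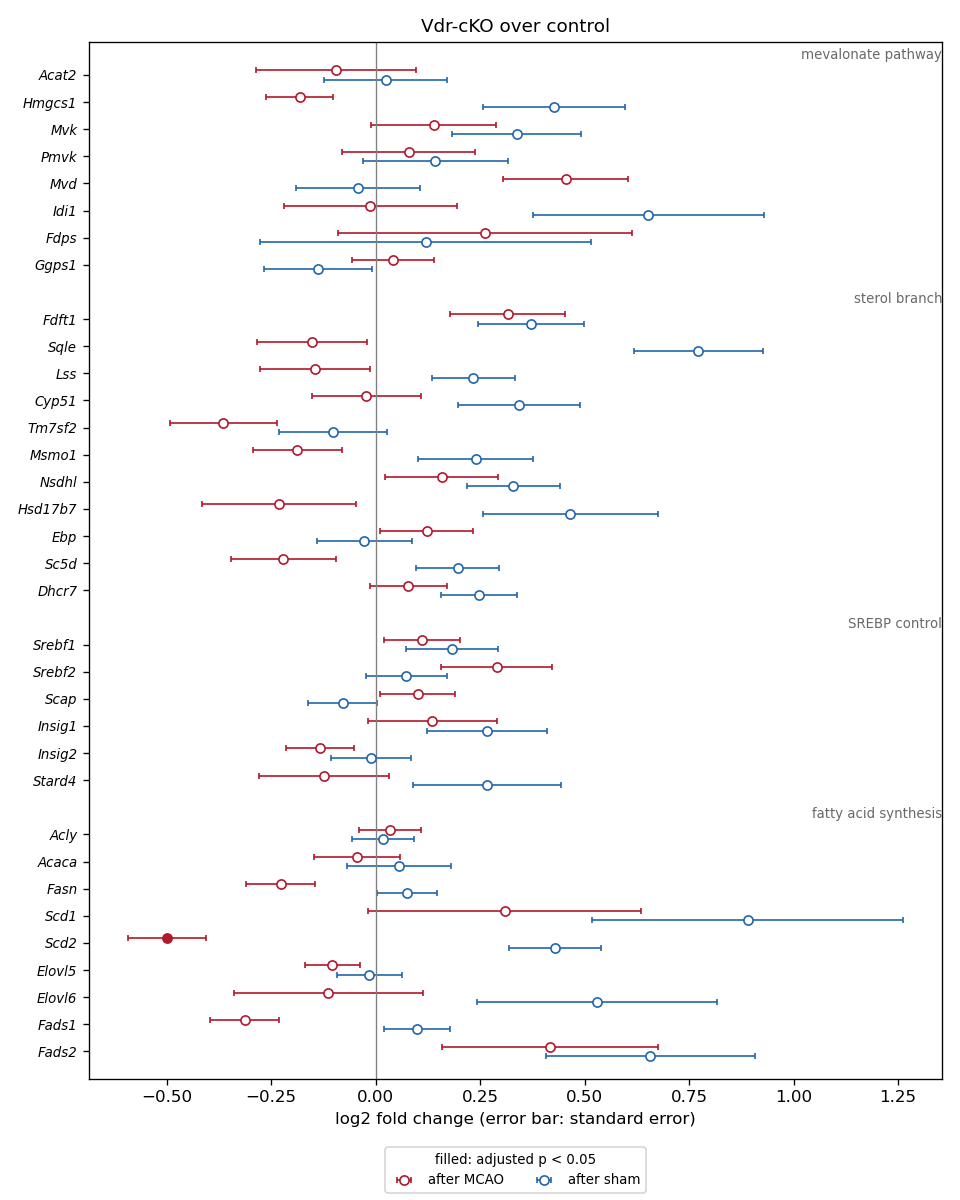
Log2 fold change of Vdr-cKO over control (x axis, bars are the standard error) for the 34 genes by role, after MCAO (red) and after sham surgery (blue), with a filled point for an adjusted p under 0.05. After sham surgery 27 of 34 points lie to the right of 0, and after MCAO Scd2, at -0.50, is the filled point.

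Whether the genotype acts differently after MCAO than after sham was tested in 1 fit of all 16 libraries. A negative value means that Vdr-cKO over control was lower after MCAO than after sham, or, which is the same, that MCAO over sham was lower in Vdr-cKO than in control mice. Of the members, 0 were higher and 3 lower (8.82%), where of all 17335 genes tested 1.4% were higher and 1.15% lower. The term was below 0 for 28 of 34 members, with a median of -0.21 against -0.01 for all genes. This term is built from the libraries of the comparisons above, so it adds no independent evidence to them.

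Scd2 (chromosome 19, 44293674 to 44306864) had an interaction of -0.95 ± 0.15 (SE, edgeR adjusted p = 0.00131). In Vdr-cKO mice it averaged 206 ± 19.5 CPM after MCAO (SD, n = 4) and 283 ± 14.7 CPM after sham (SD, n = 3), and in control mice 293 ± 28.1 CPM after MCAO (SD, n = 4) and 206 ± 29.6 CPM after sham (SD, n = 5). It thus fell after MCAO in Vdr-cKO mice (-0.47 ± 0.10 on the log2 scale, SE, edgeR adjusted p = 0.00171) and rose in control mice (0.48 ± 0.11, SE, edgeR adjusted p = 0.00199). Among the 34 members no other gene passed in opposite directions. The interaction passed with every library left out in turn (adjusted p 0.000233 to 0.00736) and without sham control replicates 2, 4 and 5 (-0.77, adjusted p = 0.0219), a setting in which the rise in control mice was 0.29 with an adjusted p of 0.0651.

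Sqle had an interaction of -0.95 ± 0.21 (SE, edgeR adjusted p = 0.0157). After MCAO it stood at 13.1, 12.3, 9.67 and 11.2 CPM in Vdr-cKO and 13.3, 11.7, 12.4 and 14.5 CPM in control libraries, which overlap, while its sham libraries did not. In Vdr-cKO mice it fell after MCAO by 0.73 ± 0.13 on the log2 scale (SE, edgeR adjusted p = 0.000827), and in control mice the change was 0.21 (adjusted p = 0.241, edgeR). With sham Vdr-cKO replicate 1 left out the interaction had an adjusted p of 0.0520, and with sham control replicates 2, 4 and 5 left out it was -0.68 with an adjusted p of 0.164, so the call depends on these sham libraries.

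Fads1, the desaturase next after Fads2 in making arachidonic acid (chromosome 19, 10182888 to 10196877), stood at 101, 93.5, 114 and 110.2 CPM in MCAO Vdr-cKO, 125, 139.7, 125 and 135 CPM in MCAO control, 183, 179 and 181 CPM in sham Vdr-cKO and 186, 154, 165, 167 and 153 CPM in sham control libraries. It fell in both genotypes, by 0.79 in Vdr-cKO and by 0.36 in control mice on the log2 scale, and the interaction was -0.44 ± 0.11 (SE, edgeR adjusted p = 0.0399). That call is weak, since it was lost in 12 of the 16 fits without 1 library (adjusted p 0.0130 to 0.126). Hmgcs1 (-0.63, adjusted p = 0.117, edgeR) and Fasn (-0.33, adjusted p = 0.121, edgeR) did not pass. Cell cycle genes, which are no members, also had negative interactions (14 of 17 lower), and their part in these results was not tested. None of the further pathway genes passed, with 0 higher and 0 lower of 15 sterol genes and of 13 fatty acid genes by edgeR. At an unadjusted p under 0.05, 3 of the sterol genes and 2 of the fatty acid genes were lower and 0 were higher. Of all 17335 genes, 1333 were lower and 1229 higher by that rule.

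**Figure D5:**
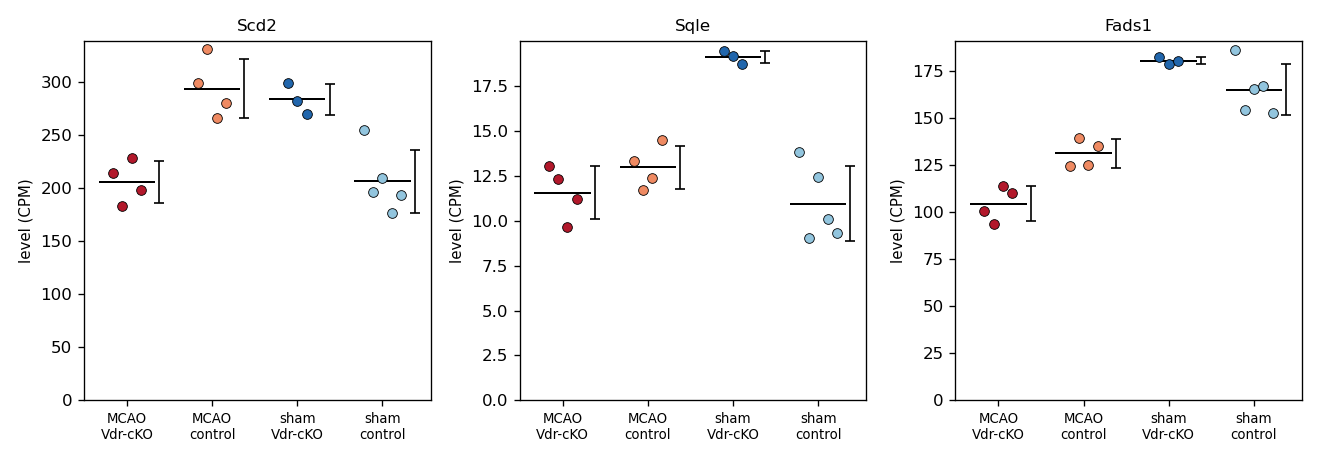
Levels (CPM) of Scd2, Sqle and Fads1 in each library of MCAO Vdr-cKO, MCAO control, sham Vdr-cKO and sham control mice, with the mean (line) and SD (bar) of each group. For Scd2 the MCAO Vdr-cKO libraries (183 to 228) lie below the sham Vdr-cKO libraries (269.5 to 299), while the MCAO control libraries (265 to 330.4) lie above the sham control libraries (177 to 255).

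Of the 34 members, 25 passed in at least 1 of the 5 comparisons and 9 in none. The 9 are Acat2, Mvk, Pmvk and Fdps of the mevalonate pathway, Cyp51 and Dhcr7 of the sterol branch, and Srebf2, Insig1 and Stard4 of the control group. Fdps had at most 19 counts in a library, so a difference in it may not be detectable at this depth. Reads of some members may also be shared with near copies. Scd2 and Scd1 are 95.5% identical over 623 bases of exon, Scd1 and Scd3 are 91.4% identical over 1053 bases, Acat2 and Acat3 are 97.7% identical over 1477 bases, and Idi1, Ggps1, Fdft1 and Elovl6 each have a processed pseudogene. How the counting assigned such reads is not given in the sources used here.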

How the data were processed

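Sequencing reads from 16 libraries of mouse microglia/macrophages were processed by the submitters, whose notes name bcl2fastq, HISAT2 2.1.0, TopHat, limma and the GRCm38 build, and the authors deposited raw read counts per gene. The counting tool, annotation and strand setting are not given in the sources used here. The study's methods name CD11b microbeads and poly-A selection, while the sample notes name sorted CD11b+CD45int cells and depletion of ribosomal RNA, and the difference was not resolved.

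Groups came from the sample labels. The members and lists were chosen with earlier results of these data known. Counts were filtered with filterByExpr, scaled by TMM and tested with the quasi-likelihood test of edgeR 4.0.16 (R 4.3.3, limma 3.58.1), two-sided, with Benjamini-Hochberg adjustment over all genes tested. Each comparison was fitted on its own groups and the interaction on all 16 libraries. "Rose" and "fell" mean an adjusted p under 0.05. Levels are counts scaled to library size (CPM) with TMM factors over all libraries, per kb of GENCODE M21 exon where genes are compared. Genes with no symbol held 0.0669% to 0.163% of the counts. All 34 members were counted in every comparison, and those passing, up to 4 per role and comparison, and 9 others chosen by name were given with values. The other pathway genes named are up to 3 per list and comparison with the smallest adjusted p. Some genes outside the 34 are not reported here. Intervals are estimate ± 1.96 SE. Alternatives were other size factors, other filters, DESeq2 1.42.0, limma-voom, a replicate block, a fold threshold, a single fit of all libraries and leaving libraries out. The fits were tested on simulated data.

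Replicate numbers are shared between groups. Same-numbered libraries did not deviate together in every pair, but so few pairs cannot settle whether a number stands for shared handling. The main fits used no pairing, and fits with a replicate block are given below.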

Additional observations from a re-analysis of the deposited data

Results flagged for a closer look

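Of the 66 groups of 4 or 5 libraries examined over the named members, 2 had a library far from the others, and chance gives about 1 in 20. Mvd in sham control replicate 3 was at 9.46 CPM, against 12.3 CPM in the nearest library of that group. Fads2 in MCAO control replicate 2 was at 6.75 CPM, against 4.08 CPM in the nearest.

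The response to MCAO differed between genotypes by the interaction test for 3 members, at -0.95 on the log2 scale for Scd2, -0.95 for Sqle and -0.44 for Fads1, each lower in Vdr-cKO than in control mice. The values and their limits stand in the report.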

How the results depend on the processing

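Over the alternatives, 1168 single-gene values were recomputed. Of these, 1104 kept their side of the threshold, 41 lost the call, 23 gained one and 0 reversed a called direction. The 1104 include values that passed in neither fit and changed sign, such as Insig1 with MCAO in control mice (-0.09 to 0.17 over 9 settings). Between genotypes after MCAO the lower count of 1 became 2 with DESeq2, 0 with a log2 fold change beyond 1 and 2 with all libraries in 1 fit. Between genotypes after sham the higher count of 0 became 1 with no filter, 2 with DESeq2, 1 with limma-voom and 2 with all libraries in 1 fit. Over all genes the 73 higher calls became 124, 178, 71 and 147 in these settings, in that order. With 1 library left out the members' higher count was 0 to 3 (3 without sham control replicate 1, 1 without replicate 3). Those 2 settings gave 161 and 75 higher calls over all genes. For MCAO against sham in Vdr-cKO mice, the higher count of 5 became 3 with upper quartile factors and 1 with a log2 fold change beyond 1, where the lower count of 18 became 4, and with 1 library left out they ran from 3 to 6 and from 13 to 18. In control mice the higher count of 6 became 0 and the lower count of 9 became 3 with a log2 fold change beyond 1, the lower count became 14 with upper quartile factors, and with 1 library left out they ran from 6 to 7 and from 8 to 10. The interaction's lower count of 3 became 0 with a log2 fold change beyond 1, 1 without sham control replicates 2, 4 and 5, and 1 to 4 with 1 library left out (1 without sham Vdr-cKO replicate 1). The fold threshold and the left-out libraries act by their own construction, and for the other changes the cause was not tested.

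With the replicate block, 0 members rose and 1 fell after MCAO and 0 and 0 after sham between genotypes, 5 rose and 16 fell with MCAO in Vdr-cKO mice, 6 rose and 9 fell in control mice, and 0 were higher and 2 lower in the interaction. Calls lost were Idi1 (adjusted p = 0.0672) and Insig2 (0.0630) in Vdr-cKO mice and Fads1 (-0.43, 0.127) in the interaction. Over all genes, the 73 higher calls between genotypes after sham became 3 and the 4 lower calls became 0, and the interaction's 243 and 199 became 193 and 117. Correlations of same-numbered libraries ran from -0.115 to 0.361, from -0.38 to 0.0144, from -0.0983 to 0.148 and from -0.129 to 0.151 in the comparisons between genotypes after MCAO and after sham and between surgeries in control and Vdr-cKO mice, with 1, 0, 1 and 2 libraries closest to their own number. With 3 or 4 pairs per comparison these values cannot settle whether a number stands for shared handling. The numbers are used here as names only.

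All-gene calls between genotypes after MCAO were 725 and 517 with DESeq2, against 495 and 250 with edgeR, and after sham 178 and 70, against 73 and 4. Depth limits Fdps most (6 to 19 counts per library), and the groups of 3 to 5 libraries limit all small changes.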
